A study of Mus musculus with 4 samples.

Results

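Leukocyte integrin genes were examined in a map of accessible chromatin from mouse natural killer (NK) cells, innate lymphocytes that kill infected and transformed cells. The 10 genes were Itgal, Itgam, Itgax, Itgb2, Itga1, Itga2, Itgb1, Itga4, Itgae and Itgb7. Each accessible region was given to the protein-coding gene whose span was closest, or, where spans were equally close, to the gene whose end was closest, and those given to these genes were kept. This rule gave 157 of 91266 regions, and it used neither list of regions that differed between the doses.

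ATAC-seq, in which a transposase cuts open chromatin and adds sequencing adapters, was performed on cultured splenic NK cells of wild-type C57BL/6 mice. Cells were kept for 72 h in a high dose (2 samples) or a low dose (2 samples) of IL-15, a growth and survival cytokine of NK cells. The labels give no concentrations, and every group received the cytokine. The deposited tables pool the series: they hold the positions of all regions and the authors' lists of up and down regions, with 0 columns of values per sample. Depth and replicate spread are therefore unknown, no test of the doses was possible, and since the reference dose is not stated the lists are called by their deposited names. All 8 NK cell markers examined (among them Ncr1, Klrb1c and Eomes) had a region within 1 kb of a gene end, against 3 of 6 T cell markers (Cd3e, Cd4 and Trac), 2 of 5 B cell markers (Cd79a and Ebf1) and 1 of 5 myeloid markers (Cd14). An accessible region is not a measure of expression.

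Integrins are surface receptors made of an alpha and a beta chain that hold cells to other cells and to the extracellular matrix. In NK cells the beta-2 family carries contact with target cells: Itgal encodes the alpha chain of LFA-1, which binds ICAM molecules, Itgam encodes CD11b and Itgax CD11c, and all 3 pair with the product of Itgb2. Itga1 (CD49a) and Itga2 (CD49b) encode collagen-binding chains that pair with the product of Itgb1; in the mouse CD49b is used to identify circulating NK cells and CD49a marks tissue-resident cells of the lineage. Itga4 (CD49d) pairs with the products of Itgb1 or Itgb7 and binds VCAM-1 or MAdCAM-1, and Itgae (CD103) pairs with that of Itgb7 and binds E-cadherin.

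The start of every member that could be placed lay in open chromatin that neither list held. RefSeq windows of 300 bases (250 before to 50 after the start, GRCm38.p6) were given for 7 members, and Itgal, Itgae and Itgb2 had none. Each of the 7 windows overlapped an accessible region, and 0 of the 7 regions were up or down. Among 21263 windows of protein-coding genes, 54.0% overlapped a region and 0.456% overlapped a listed one. Of the windows that overlapped a region, 0.845% overlapped a listed one, so 0 of 7 does not set the members apart. The 250 bases before the start are shown for the 3 members that had both a listed region and a placed start, and for Itga4, which had the most regions of the members with none listed. Capitals mark matches, on either strand, to the motifs named after the sequences.
Itga2, chr13:114932101-114932350, minus strand: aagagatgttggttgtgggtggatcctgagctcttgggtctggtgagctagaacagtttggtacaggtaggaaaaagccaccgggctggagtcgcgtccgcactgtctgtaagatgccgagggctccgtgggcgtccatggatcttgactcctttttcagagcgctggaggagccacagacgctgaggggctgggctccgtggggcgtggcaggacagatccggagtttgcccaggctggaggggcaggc
Itga1, chr13:115101965-115102214, minus strand: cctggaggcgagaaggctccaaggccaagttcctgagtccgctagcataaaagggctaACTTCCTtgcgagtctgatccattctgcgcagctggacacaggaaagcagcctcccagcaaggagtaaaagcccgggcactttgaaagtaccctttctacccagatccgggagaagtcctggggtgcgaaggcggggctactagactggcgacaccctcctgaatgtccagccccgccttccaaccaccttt
Itgb1, chr8:128685404-128685653, plus strand: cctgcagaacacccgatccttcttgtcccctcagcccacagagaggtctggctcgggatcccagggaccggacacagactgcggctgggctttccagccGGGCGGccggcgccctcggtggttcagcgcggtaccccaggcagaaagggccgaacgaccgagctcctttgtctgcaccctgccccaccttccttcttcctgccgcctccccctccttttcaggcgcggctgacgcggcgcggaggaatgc
Itga4, chr2:79255176-79255425, plus strand: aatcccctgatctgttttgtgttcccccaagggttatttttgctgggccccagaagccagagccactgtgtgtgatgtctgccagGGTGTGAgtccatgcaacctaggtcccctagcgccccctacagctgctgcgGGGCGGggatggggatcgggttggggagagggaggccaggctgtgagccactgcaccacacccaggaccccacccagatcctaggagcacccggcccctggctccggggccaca

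The motifs searched in the 300 bases were STAT (TTCNNNGAA), T-box (GGTGTGA), RUNX (TGTGGTT), ETS (AGGAAGT), AP-1 (TGANTCA), NF-kB, TCF (CTTTGAT), IRF and the GC box (GGGCGG). No match of one overlapped a match of another in the 7 member windows. A GC box was present in 4 of the 7 windows (Itga4, Itgam, Itgb1 and Itga2) and in 46.2% of all protein-coding windows. In Itga2 it began at base 3 after the start, outside the letters shown. An ETS match was present in Itga1, at -192 from the start, and in Itgb7, and in 9.07% of all windows. Itga4 held a T-box match at -165 (3.68% of all windows) and Itgax an AP-1 match at -56 (6.99%). STAT, RUNX, NF-kB, TCF and IRF letters were in 0 of the 7 windows, and in 7.69%, 4.71%, 23.0%, 3.22% and 3.35% of all windows. GC content ranged from 50% in Itgax to 67.3% in Itgb1, and its median over the 7 was 56.7%, against 62.0% in all protein-coding windows that overlapped a region. These are matches of letters, not measured binding sites.

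Of the 157 regions, 7 were up, or 4.46% (95% Wilson interval 2.18 to 8.92%, covering counting error only), beside 4.21% of all regions. Down regions numbered 2, or 1.27% (0.350 to 4.53%), beside 1.40% of all regions. Together 9 regions were listed, 5.73% (3.04 to 10.5%) beside 5.61% of all regions. These shares were close to those over all regions. The up share rested largely on Itga1: without its regions, 3 of 126 were up (2.38%, 0.813 to 6.77%), and 2 were down (1.59%, 0.436 to 5.60%). The 9 listed regions were uneven among the genes: Itga1 had 4 up regions, Itga2 had 1 up and 1 down, Itgae and Itgb1 had 1 up each, and Itgal had 1 down. Of the 10 genes, 4 had an up region and 2 a down region, beside 16.1% and 5.39% of the 16387 genes with any region, and 5 had a region in either list, beside 20.1%. Neither list held a region of Itgam, Itgax, Itgb2, Itga4 or Itgb7. The 10 genes had more regions than most, from 4 to 31 against a median of 3 per gene, so genes with like numbers of regions are given as the reference for single genes.

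**Figure D1:**
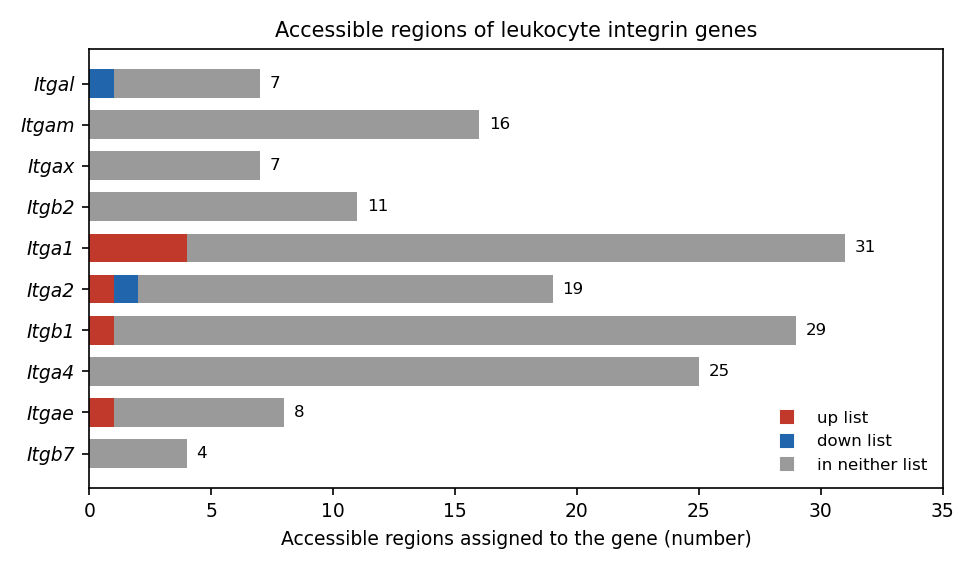
Number of accessible regions assigned to each leukocyte integrin gene, with the authors' up and down regions in colour and the total at the end of each bar. Itga1 has the most regions (31) and the most up regions (4), and 5 genes have no listed region.

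The beta-2 family held 41 regions, of which 0 were up (interval up to 8.57%, beside 4.21% of all regions) and 1 was down (2.44%, 0.432 to 12.6%, beside 1.40%). Both intervals hold the shares over all regions. Itgal (chr7:127296139-127335137) had 7 regions, 3 of them in the gene and 4 beyond its end with the lower coordinate. Its widest region, 951 bp at chr7:127295810-127296760, overlapped that end and was in neither list. The down region, 487 bp at chr7:127293483-127293969, lay 2.17 kb outside the gene on the same side. At least 1 down region was found in 6.48% of the 2068 genes with 6 to 8 regions. A long non-coding gene, Gm31897, lay nearer to it, at 1.59 kb. The next listed region that was not assigned to Itgal was 584 kb from the gene.

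Itgam and Itgax are neighbours on the same chromosome. Itgam (chr7:128062640-128118491) had 16 regions from 178 to 783 bp wide, 8 inside the gene, 6 upstream within 19.9 kb and 2 downstream. Its start lay in a region of 617 bp at chr7:128062239-128062855, and its widest region, at chr7:128119624-128120406, lay beyond the other end. Itgax (chr7:128129526-128150657) had 7 regions, 4 inside the gene and 3 downstream within 8.01 kb. Its start lay in a region of 838 bp at chr7:128128879-128129716, and its widest region, of 972 bp at chr7:128136914-128137885, was inside the gene. The nearest listed region was an up region assigned to Bag3, 387 kb from Itgam and 355 kb from Itgax. Absence from the lists was common at such numbers: 43.6% of the 915 genes with 13 to 19 regions, and 69.4% of the 2068 genes with 6 to 8, had no listed region.

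Itgb2 (chr10:77530329-77565708), the shared beta chain, had 11 regions, 9 of them inside the gene. With 2.54 regions per 10 kb of gene it was the most densely covered of the 10 genes, and Itgal, with 0.769, was the least. Its widest region measured 1531 bp at chr10:77529944-77531474 and overlapped the end with the lower coordinate. None of the 11 was listed, as in 54.4% of the 1418 genes with 9 to 13 regions. A down region assigned to Fam207a, at chr10:77518993-77519504, lay 10.8 kb from Itgb2.

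**Figure D2:**
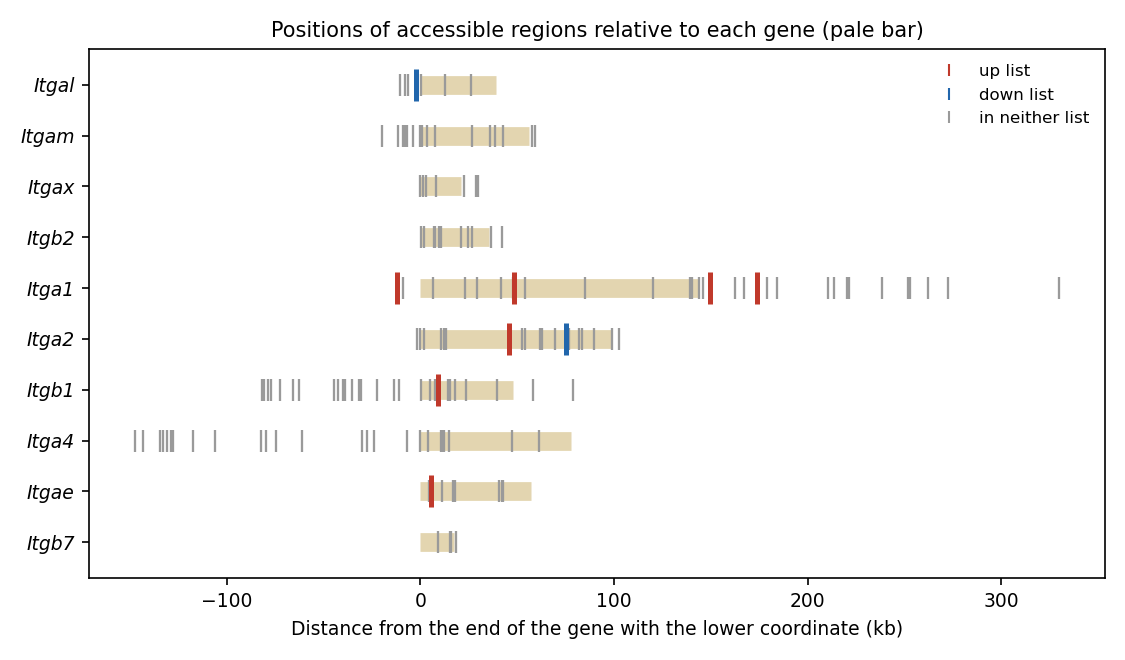
Position of each accessible region (tick) relative to its gene (pale bar), in kb from the gene end with the lower coordinate. Regions of Itga4, Itgb1 and Itga1 extend up to 147, 81.9 and 185 kb outside the gene, and all regions of Itgae lie inside it.

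The collagen receptor genes and Itgb1 held most of the listed regions. Their 79 regions included 6 up (7.59%, 3.53 to 15.6%) and 1 down (1.27%, 0.224 to 6.83%). The intervals hold the shares over all regions in the up list (4.21%) and in the down list (1.40%).

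Itga2 and Itga1 lie in a row on chromosome 13, on the minus strand, 26.0 kb apart, with 50 regions in all. Of these, 5 were up (10.0%, 4.35 to 21.4%, beside 4.21% of all regions) and 1 was down (2.00%, 0.354 to 10.5%, beside 1.40%). The lower bound of the up share lay just above the share over all regions, but the pair was singled out after its values were seen and its regions are not independent. Itga2 (chr13:114833081-114932100) had 19 regions, 17 of them inside the gene. Its start lay in a region of 1137 bp at chr13:114931339-114932475, and its widest region, the widest of all 157, measured 1811 bp at chr13:114886029-114887839 inside the gene. Neither was listed. The up region of 548 bp, at chr13:114878583-114879130, lay 53.0 kb downstream of the start, and 46.0% of the 617 genes with 16 to 22 regions had at least 1. The down region of 847 bp, at chr13:114907625-114908471, lay 23.6 kb downstream of the start, and 21.7% of the same genes had at least 1 down region.

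The up and down regions of Itga2 were 28.5 kb apart, both inside the gene, with 5 unlisted regions between them. Regions in both lists were found for 1.36% of the genes with any region, and for 7.94% of those 617 genes. Of 320 pairs of consecutive listed regions that were 20 to 40 kb apart and assigned to the same gene, 64 (20%) were in opposite lists.

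Itga1 (chr13:114958079-115101964), the longest of the 10 genes at 144 kb, had 31 regions, a number reached by 1.15% of the 21900 protein-coding genes. Of these, 12 lay inside the gene, 17 upstream as far as 185 kb and 2 downstream. Their median width was 342 bp. The median was 326 bp in Itgb2 and 359 bp in all regions further than 1 kb from a gene end. The start lay in an unlisted region of 792 bp at chr13:115101370-115102161, and the widest, of 843 bp at chr13:115171430-115172272, was upstream of the gene and unlisted as well.

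The 4 up regions of Itga1 made up 12.9% of its regions (5.13 to 28.9%). Of the 339 genes with 25 to 37 regions, 27 (7.96%) had at least 4. Upstream of the start lay 2 of them, one of 368 bp at 5.48 kb (chr13:115107442-115107809) and one of 607 bp at 29.4 kb (chr13:115131329-115131935). A long non-coding gene, Gm41075, overlapped the second and was 2.07 kb from the first. A region of 313 bp lay inside the gene, 95.5 kb downstream of the start (chr13:115006179-115006491). The fourth, of 642 bp at chr13:114945540-114946181, lay between the genes, 11.9 kb from Itga1 and 13.4 kb from Itga2, so that its assignment to Itga1 rests on a small difference in distance.

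Along the chromosome the order of the 6 listed regions was up and down in Itga2, then 4 up from the interval between the genes to the flank of Itga1. They spanned 253 kb and were not adjacent: from 2 to 7 unlisted regions of the pair lay between each listed region and the next. The gap between the down region and the up region in the interval was 37.1 kb, and the gaps between the up regions of Itga1 were 60.0, 101 and 23.5 kb.

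**Figure D3:**
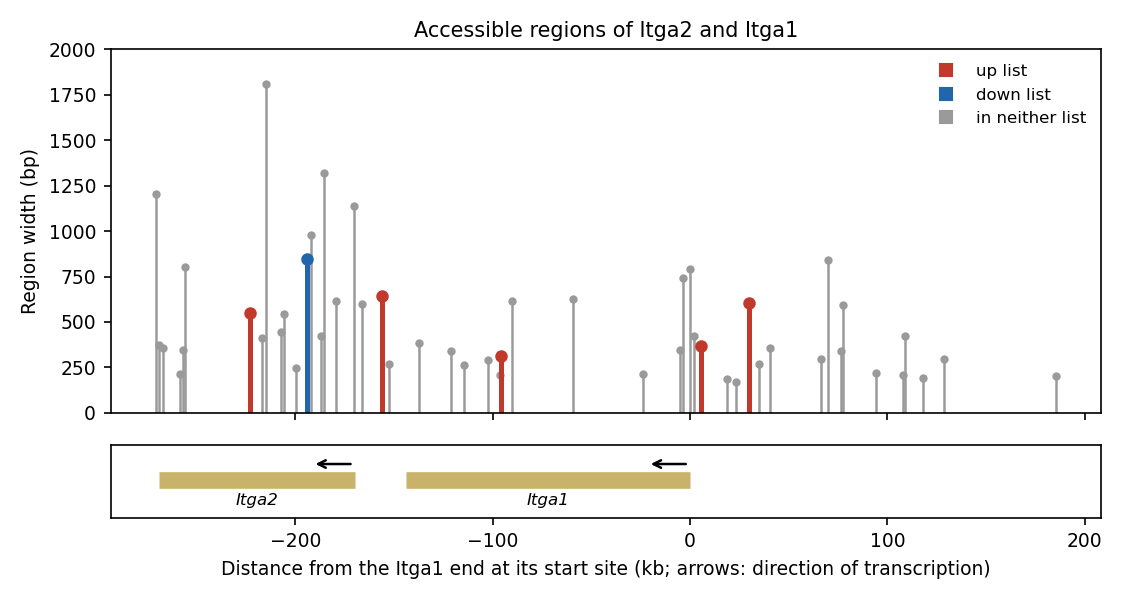
Width in bp of each accessible region of Itga2 and Itga1 against its distance in kb from the upper end of Itga1, where its start lies; bars underneath show the genes. The 5 up regions and 1 down region spread over 253 kb, and the wide regions at the starts (1137 and 792 bp) are in neither list.

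Itgb1 (chr8:128685654-128733579), which encodes the beta chain shared by CD49a, CD49b and CD49d, had 29 regions. Of these, 10 were inside the gene, 17 upstream as far as 81.9 kb and 2 downstream. The widest region, of 1612 bp at chr8:128685024-128686635, held the start and was unlisted. The up region of 492 bp, at chr8:128694529-128695020, lay inside the gene, 8.88 kb downstream of the start. At least 1 up region was found in 57.3% of the 344 genes with 24 to 34 regions. The next listed region, assigned to Nrp1, was 418 kb from Itgb1.

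The genes of the alpha-4, alpha-E and beta-7 chains had 37 regions, of which 1 was up (2.70%, 0.479 to 13.8%, beside 4.21% of all regions) and 0 were down (interval up to 9.41%, beside 1.40%). Both intervals again hold the shares over all regions. Itga4 (chr2:79255426-79333114) had 25 regions and none was listed, as in 27.5% of the 505 genes with 20 to 30 regions. The interval of its up share reached 13.3%. Its start lay in its widest region, of 1655 bp at chr2:79254550-79256204. Inside the gene were 8 regions, and 17 lay upstream, 9 of them more than 100 kb away. The nearest listed region was a down region assigned to Ube2e3, 204 kb from Itga4.

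Itgae (chr11:73090505-73147449) differed from the other 9 genes in having no region assigned to it within 1 kb of either end. Regions assigned to other genes were not counted. Only 54.0% of all protein-coding start windows overlapped a region, so the lack of one is common. All of its 8 regions were inside the gene, and the nearest to an end, which was also its widest with 791 bp (chr11:73094348-73095138), was 3.84 kb from it. The next region along, of 402 bp at chr11:73095491-73095892 and 4.99 kb from the same end, was up. At least 1 up region was found in 27.6% of the 1575 genes with 7 to 9 regions. Another up region, in P2rx5, lay 21.8 kb beyond the gene. Itgb7 (chr15:102215994-102233405) had the fewest regions, 4, and none was listed, as in 83.1% of the 1574 genes with 4 regions. The start window of Itgb7 overlapped a region of 319 bp at chr15:102231823-102232141, which lay inside the gene, 1.26 kb from the nearest end. No region assigned to Itgb7 overlapped an end of the gene, and the closest lay 0.556 kb outside. Its widest region, of 1203 bp at chr15:102224522-102225724, was inside the gene.

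The positions and widths of the 9 listed regions were set beside those of all regions. None was within 1 kb of a gene end, where 12 of the 157 regions (7.64%) lay; among all regions 16.9% lay there, and 1.32% of those were up and 0.616% down. Inside a gene further from its ends were 5 of the 9, outside within 10 kb 2, and further out 2. Their widths ran from 313 to 847 bp with a median of 492 bp, against a median of 414.5 bp and a range of 159 to 1811 bp in the 148 unlisted regions. Listed regions were wider by the median among all regions too, with 453 bp for up, 537 bp for down and 400 bp for all regions together. In each gene with a listed region the widest region was unlisted. Only 5.61% of all regions were listed, and the share among the widest regions of all genes was not computed. Member regions within 1 kb of a gene end had a median of 815 bp and the others of 400 bp, beside 798 and 359 bp over all regions. Weighted to the widths of the 157 regions, 4.57% of all regions were up and 1.5% down, and weighted to their positions relative to genes 4.65% and 1.5%, so that the member shares stayed close to the reference.

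**Figure D4:**
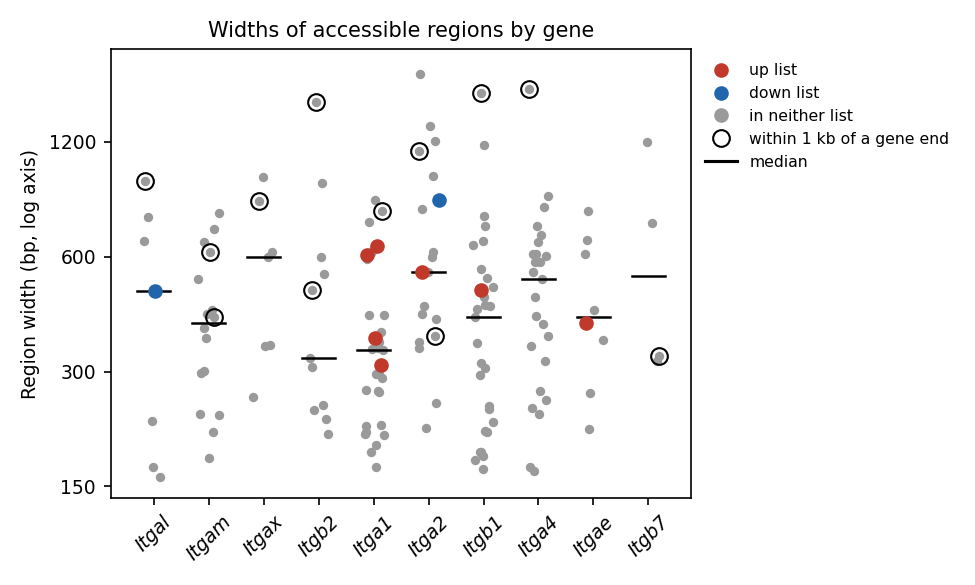
Width in bp (log axis) of each accessible region by gene, with rings around those within 1 kb of a gene end and a line at each median. The coloured listed regions lie between 313 and 847 bp. The widest region of each gene is in neither list, and only 5.61% of all regions are listed.

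Other genes of integrin function were counted in 3 lists chosen with earlier results of these data known. The 17 other integrin subunit genes had 117 regions, of which 10 were up (8.55%, 4.71 to 15%, beside 4.21% of all regions) and 0 were down (up to 3.18%, beside 1.40%). Up regions were found for 5 of the 17 genes, beside 16.1% of all genes with a region. Itga9 had 3 of 20 regions up, all inside the gene, Itgb3 3 of 14, all inside the gene, Itgb8 2 of 9, and Itga2b and Itgav 1 each, of 4 and 14. As many up regions as in Itga9, Itgb3 and Itgb8 were found in 10.1%, 5.55% and 10.1% of genes with like numbers of regions. The product of Itga9 pairs with that of Itgb1, those of Itga2b and Itgav pair with that of Itgb3, and that of Itgb8 pairs with that of Itgav. These pairings are named only for genes with an up region, and 12 of the 17 genes had no listed region.

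Among 27 genes of integrin activation, adaptors and signalling, 396 regions included 3 up (0.758%, 0.258 to 2.20%, beside 4.21% of all regions) and 10 down (2.53%, 1.38 to 4.59%, beside 1.40%). Down regions were found for 5 of the 27 genes and up regions for 3, beside 5.39% and 16.1% of all genes with a region, and 0 genes had both. Many of the 27 genes had more regions than the median of 3 per gene, and these gene shares are not matched for region number. Fyb, an adaptor that links receptor signals to integrins, had 3 of 24 regions down. Rapgef1, an exchange factor for the Rap1 GTPase that activates integrins, had 3 of 43 down, and Cd226, an activating receptor that associates with LFA-1, had 2 of 20 down. All 8 of these regions lay inside their genes. As many down regions as in Fyb, Rapgef1 and Cd226 were found in 3.91%, 15.3% and 6.97% of genes with like numbers of regions. Of 18 genes of integrin ligands, 15 had a region, 90 in all, of which 1 was up (1.11%, 0.196 to 6.03%, beside 4.21% of all regions) and 0 were down (up to 4.09%, beside 1.40%). Both intervals hold the shares over all regions. The up region was 1 of 9 assigned to Cdh1, which encodes the E-cadherin bound by CD103. The difference between the lists was not tested, because regions of the same gene are not independent.

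**Figure D5:**
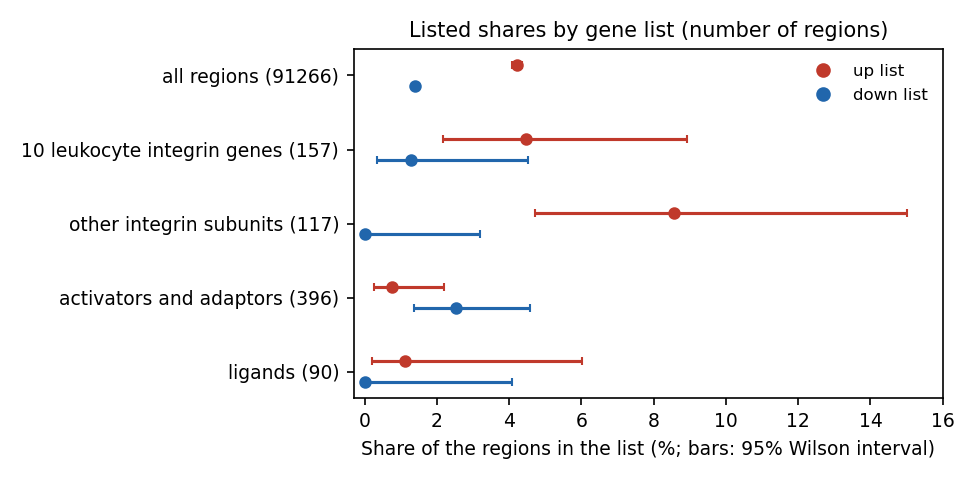
Share of regions in the up and down lists, in percent with 95% Wilson intervals, for all regions, the 10 leukocyte integrin genes and 3 lists of related genes (number of regions in brackets). The 10 genes lie near all regions (4.46 beside 4.21% up and 1.27 beside 1.40% down), the other subunits at 8.55% up and the activators and adaptors at 0.758% up and 2.53% down.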

How the data were processed

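Accessible chromatin was measured by ATAC-seq in 4 samples, 2 per IL-15 dose, grouped by the dose in their titles. The authors deposited a list of all regions and their lists of up and down regions, holding positions and widths only. The submitters' processing notes name BWA, ArchR, MACS2, HOMER 4.11.1 and the build mm10, which is GRCm38, without saying what each tool did. How samples were combined for peak calling, which test gave the lists and at what threshold are not given in the sources used here.

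Starts of the full list were raised by 1, so that coordinates are 1-based, and each listed region was matched by identical coordinates (0 were missing, and 0 were in both lists). Genes came from the RefSeq table of GRCm38.p6 (21900 protein-coding genes, with all 10 members matched), and start windows and their sequences from RefSeq of the same build. As a check of the build, 54.0% of protein-coding start windows overlapped a region, against 5.00% and 4.90% after a move of 100 kb either way. Exons and introns were not annotated. Genes of like region number are those within 20% of the member's own number, the member included. Width weighting used 10 classes. Intervals are Wilson intervals at 95%, from statsmodels 0.14.6 in Python 3.11.15; they treat regions as independent, which neighbouring regions are not. The assignment was tested on simulated regions around widely separated genes, so ties, overlapping genes and close calls between neighbours were not covered.

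The members and gene lists were chosen with earlier results of these data known. All members were named, with their listed regions, the region at the start and the widest, and related genes with at least 2 regions in a list or regions in both; related genes named with 1 listed region were chosen after their values were seen. The 8 alternatives tried concern the assignment, the minimum width and the match of the lists. Weighting the reference by width or position was added after the data were seen.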

Additional observations from a re-analysis of the deposited data

How the results depend on the processing

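No paired analysis was possible because the tables hold no values per sample; for the same reason the test of the doses, leaving out replicates and stricter thresholds were not run. Assignment by nearest start site was not run, since start windows were used for 7 of the 10 genes. Of 24 recomputed counts of regions, 18 were within 1.5 times the reported value. The 157 regions became 96 with the nearest gene of any biotype, with 1 down region. Regions overlapping a member gene, whichever gene they were assigned to, numbered 85, with 4 up and 1 down. Of the 157 regions, 82 overlapped their gene, so some of the 85 had been assigned to other genes. Regions within 50 kb of a gene, whichever gene was nearest, included 4 down regions, 2 of them near Itgb2. The 4 up regions of Itga1 became 2 with genes of any biotype or within 10 kb and 1 in the gene, because the others lie outside the gene or nearer to a non-coding gene. Itgal had 0 down regions with genes of any biotype and in the gene. Itgae, Itgb1 and Itga2 had at least 1 up region, and Itga2 had 1 down region, under all 8 alternatives. Minimum widths of 200 and 300 bp and looser matching of the lists kept 7 up and 2 down. With unknown depth, an unlisted region cannot be read as unchanged.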
